A study of Mus musculus with 9 samples.

Results

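The 37 genes described here encode aminoacyl-tRNA synthetases of the mouse, 20 enzymes and enzyme subunits of the cytosol and 17 of the mitochondrion. They were chosen by symbol from the deposited gene table (a letter followed by ars, ars1 or ars2, with Eprs, Ears2, Farsa and Farsb added, and with pseudogenes and Aarsd1 left out), and all 37 of the 55487 genes listed there that met this rule are protein-coding and passed the filter on low counts. The rule does not take in Tarsl2, a further threonyl-tRNA synthetase gene, which is given with the charging partners. Retinas of C57BL/6J mice, wild-type and 28 days old, were cultured as explants for 48 h with 5 mM glucose in the medium. The control group (5 libraries) had no further addition, and the 2-DG group (4 libraries) received 20 mM 2-deoxy-D-glucose, a glucose analogue that inhibits glycolysis. The methods describe a rinse and 1 further h in Krebs' Ringer medium after the culture, and do not make clear whether the retinas taken for RNA went through it. The labels call the libraries of a group biological replicates but do not tie them to animals, so p-values measure the spread between these libraries. An explant holds all cell types of the neural retina, and in such bulk samples fewer cells of a type and less RNA per cell cannot be told apart.

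An aminoacyl-tRNA synthetase joins an amino acid to its own tRNAs, which makes these enzymes the step between amino acid supply and translation. The cytosolic and the mitochondrial enzymes are mostly encoded by separate nuclear genes, but Gars and Kars each give rise to the glycyl- and lysyl-tRNA synthetases of both compartments. Many cytosolic synthetase genes are known targets of ATF4, the transcription factor of the integrated stress response, which is translated when kinases phosphorylate the initiation factor eIF2α. The mitochondrial enzymes serve only the few proteins encoded by mitochondrial DNA.

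A sequence feature used by ATF4 was searched for, because many cytosolic synthetase genes are its known targets. The letters TGATGNAA, the core of the C/EBP-ATF response element through which ATF4 with a C/EBP partner binds, were read on either strand of RefSeq promoter windows (GRCm38.p6, 250 bases before to 50 after the transcription start). A window was listed for 27 of the 37 genes, and genes without one included Cars, Hars, Lars, Nars, Rars, Vars, Wars, Hars2 and Pars2. The core was present in 5 of 13 cytosolic genes (Aars, Gars, Iars, Tars and Yars) and in 0 of 14 mitochondrial genes, against 4.51% of all 27025 genes with a window. The 5 matches within 50 bases of the start site, 1 in each gene, are given here with 11 bases to either side, 5′ to 3′ on the strand of the gene, with the match to the core in capitals. They are printed so that the core and its variable letter can be compared between genes.
Aars: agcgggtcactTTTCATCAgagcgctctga
Gars: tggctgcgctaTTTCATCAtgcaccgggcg
Iars: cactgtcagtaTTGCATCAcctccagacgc
Tars: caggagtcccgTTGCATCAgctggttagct
Yars: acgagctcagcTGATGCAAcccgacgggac

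These stretches lie at chr8:111033840-111033869 (Aars, plus strand), chr6:55037960-55037989 (Gars, plus), chr13:49682126-49682155 (Iars, plus), chr15:11399655-11399684 (Tars, minus) and chr4:129189895-129189924 (Yars, plus). The first capital stands 30 bases before the start site for Gars and 15 before it for Tars. It stands 9 bases after the start site for Aars, 7 after it for Iars and 3 after it for Yars. In Yars the core reads forward, and in the other 4 it reads on the opposite strand. All 5 genes are on the list of 12 cytosolic synthetases known as ATF4 targets, of which 8 had a window. The other motifs searched on both strands were the cAMP response element TGACGTCA, in 0 of 13 cytosolic and 0 of 14 mitochondrial genes against 2.03% of all genes, the end CCACG of the ER stress response element, in 10 of 13 and 6 of 14 against 35.5%, and the GC box GGGCGG, in 8 of 13 and 11 of 14 against 38.2%. None of their matches overlapped a match to TGATGNAA in these windows. Such matches describe the letters of these windows and do not show binding.

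The libraries held 11317734 to 51802249 estimated counts. Values are given as CPM, a gene's counts relative to the library's total, scaled by TMM factors that align the bulk of genes between libraries. Log2 CPM of pairs of libraries correlated at r = 0.868 to 0.977 across genes, and the coefficient of variation between libraries was 51.5% in the fit of all genes. Retinal markers were present in every library, with 8 rod genes summing to 5019 to 41020 CPM, and markers of the retinal pigment epithelium summed to 0.934 to 18.4 CPM in 8 of the 9 libraries. Control replicate 2 stood apart with the 41020 CPM of rod genes (at most 15430 elsewhere), and 2-DG replicate 4 with the largest share of counts from the mitochondrial genome, 13.6% (3.40 to 10.7% elsewhere). Replicate 3 of 2-DG stood apart with 134 CPM of pigment epithelium markers. It also had the highest sum of cone markers, 761 CPM, followed by control replicate 2 with 546 CPM (59.7 to 117 CPM elsewhere). All 3 enter the values below unless it is said otherwise.

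In controls the cytosolic genes were the more abundant set. Divided by the mean length of the gene's transcripts, weighted by their counts, levels ran from 14.9 ± 1.92 CPM per kilobase (SD, n = 5) in Vars to 117 ± 47.6 CPM per kilobase (SD, n = 5) in Nars among the cytosolic genes. Seryl-tRNA synthetase Sars followed Nars with 99.5 ± 36.2, then Aars with 68.4 ± 18.6 and Gars with 68.3 ± 22.3. The SDs of these neighbours overlap, so their order is not resolved by 5 libraries. Mitochondrial genes ran from 2.14 ± 0.620 CPM per kilobase (SD, n = 5) in Mars2 to 23.7 ± 5.35 CPM per kilobase (SD, n = 5) in Tars2, with Lars2 far above them at 93.1 ± 56.2. In this measure 19 of 20 cytosolic genes stood above every mitochondrial gene other than Lars2, the exception being Vars.

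Of the 14 amino acids with a cytosolic and a mitochondrial gene of the same name, the cytosolic gene had the higher control level per kilobase in 13. The ratio was 38.6 for the asparaginyl pair (Nars over Nars2), 18.7 for the methionyl pair and 10.5 for the seryl pair. It was lowest for the valyl pair at 1.80, the threonyl pair at 1.35 and the leucyl pair at 0.328. The log2 fold change was above that of the mitochondrial partner in 11 of 14 pairs, with a median difference of 0.25. The 3 pairs without this order were those of Aars, Cars and Hars, with differences of −0.02, −0.05 and −0.14. This order rested in part on 2-DG replicate 4. Without it 7 of 14 pairs had it, with a median difference of −0.0037, and the Nars, Rars, Sars and Tars pairs were at −0.15, −0.26, −0.02 and −0.10. When each other library was left out, 9 (without control replicate 3) to 13 pairs had it, with a median difference of 0.08 without control replicate 2, 0.12 without control replicate 1, 0.16 without control replicate 3, 0.39 without control replicate 4, 0.42 without control replicate 5, and between 0.29 and 0.33 without 2-DG replicate 1, 2 or 3.

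**Figure D1:**
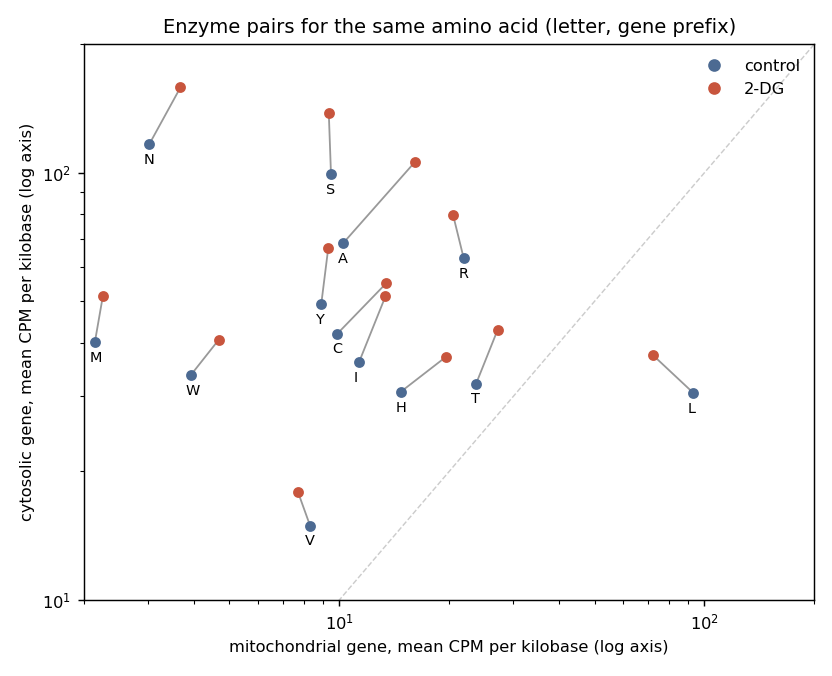
Mean level of the mitochondrial gene (x axis) and the cytosolic gene (y axis) for the same amino acid, in CPM per kilobase on log axes, with controls in blue joined to 2-DG in red and the dashed line marking equal levels. The leucyl pair (L), with a control ratio of 0.328, is the only one of the 13 pairs drawn on the mitochondrial side of the line, and most pairs move upward.

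The comparison of 2-DG with control retinas asks whether blocking glycolysis went along with other synthetase transcript levels, and whether cytosolic and mitochondrial enzymes differed in this. Fold changes are log2 of 2-DG over control from the fit of all genes, with the standard error (SE). The cytosolic genes were higher in 2-DG in 19 of 20 cases (17 with upper-quartile scaling, 18 with library size only and 16 without 2-DG replicate 4), with a median log2 fold change of 0.37 (range −0.16 in Qars to 0.63 in Gars), beside a median of −0.01 over all 21049 genes tested and 0.05 over protein-coding genes. The mitochondrial genes were higher in 9 of 17 cases, with a median of 0.06 (range −0.73 in Fars2 to 0.65 in Aars2), a median whose sign turned to −0.02 without scaling beyond library size and to −0.03 with upper-quartile scaling. That median was 0.16 without control replicate 2 and 0.15 without 2-DG replicate 3, with 12 of 17 genes higher in either case. Over all genes 49.2% had a log2 fold change above 0, and of 16021 protein-coding genes 8818 did. No synthetase gene passed the adjusted threshold in this fit, the lowest adjusted p of edgeR's quasi-likelihood test being 0.656 in Eprs.

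At an adjusted p under 0.05 that test called 0% of all genes. DESeq2 called 284 genes, no synthetase among them, and limma-voom 1222, with Aars, Aars2, Cars2 and Fars2 among them. At an unadjusted p under 0.05 the quasi-likelihood test called 3 synthetase genes, all higher in 2-DG (Eprs, Aars and Aars2), and 0 lower. These calls changed with the scaling. With upper-quartile scaling they were Eprs, higher, and Fars2, lower (edgeR unadjusted p = 0.0415), and with library size only Fars2 alone, lower (edgeR unadjusted p = 0.0228). Over all genes the same test called 2.42% higher and 4.83% lower, and among 16021 protein-coding genes 480 higher and 607 lower. With upper-quartile scaling the shares over all genes were 1.53% and 6.07%, and with library size only 1.39% and 6.54%. The groups did not overlap, with every 2-DG library above every control, in 2 synthetase genes (Eprs and Aars), and in none did every 2-DG library lie below every control. Over all genes these shares were 1.52% and 1.41%, with counts of 309 and 156 among 16021 protein-coding genes. By compartment, 2 of 20 cytosolic and 1 of 17 mitochondrial genes had an unadjusted p under 0.05. The cytosolic count depended on single libraries, at 5 without 2-DG replicate 3, 1 without control replicate 1 or 3 and 0 without 2-DG replicate 1, 2 or 4. The mitochondrial count was 3 without 2-DG replicate 4 (2 higher, and Fars2 lower) and 2 without control replicate 2. It was 0 without control replicate 1, 3, 4 or 5 or 2-DG replicate 1 or 2. Over all genes the shares without single libraries were 1.35 to 3.38% higher and 3.17 to 9.49% lower.

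**Figure D2:**
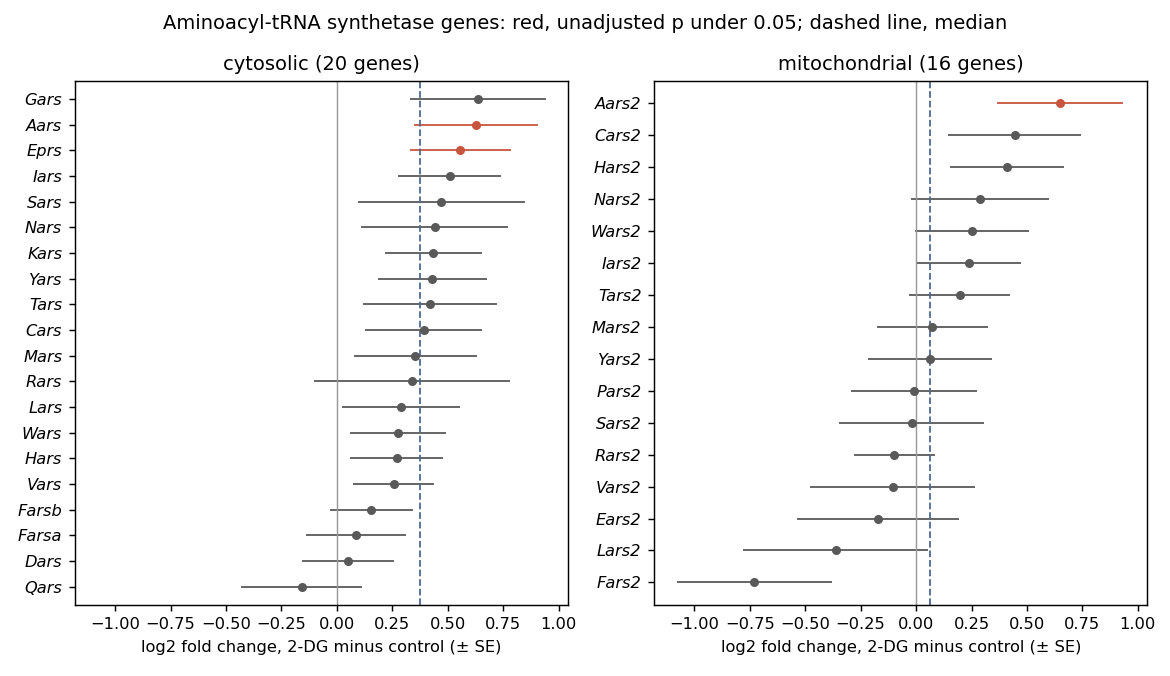
Log2 fold change of 2-DG minus control with its standard error for 20 cytosolic (left) and 16 mitochondrial (right) synthetase genes, with red for an unadjusted p under 0.05 and a dashed line at the median of all genes of each compartment. The cytosolic points lie to the right of 0 except Qars at −0.16, around a median of 0.37, while the mitochondrial points lie on either side of 0 around 0.06.

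Eprs (chr1:185363044-185428360 in GRCm38, as are all gene positions) carries the glutamyl- and prolyl-tRNA synthetases in a single protein and is the largest enzyme of the cytosolic multi-tRNA synthetase complex. In control replicates 1 to 5 Eprs had 249, 148, 265, 270.5 and 246 CPM, and in 2-DG replicates 1 to 4 it had 344, 376, 309 and 357 CPM. Its control values lay close together apart from the low replicate 2, and each 2-DG library was above all of them. Its log2 fold change was 0.56 (SE 0.23, edgeR unadjusted p = 0.0333, adjusted p = 0.656). Most of its counts were on the protein-coding transcript Eprs-201, with 89.0% in controls and 85.0% in 2-DG.

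Aars (chr8:111033144-111057664) charges the tRNAs for alanine in the cytosol. The 5 control values of Aars were 457, 201, 396, 433 and 432 CPM and the 4 of 2-DG were 664, 653, 457 and 599 CPM. The groups did not overlap, but by a margin of 456.7 against 456.6 CPM, and control replicate 2 was again the lowest library. This gave a log2 fold change of 0.63 for Aars (SE 0.28, edgeR unadjusted p = 0.0465, adjusted p = 0.689). Part of its annotated exon sequence, 1326 bases, is shared on the same strand with Exosc6. Its mitochondrial partner Aars2 (chr17:45506841-45520843) had a control level per kilobase 6.67 times lower. Aars2 stood at 34.3, 45.0, 32.1, 28.1 and 24.2 CPM in the 5 controls, against 69.6, 65.4, 37.7 and 32.8 CPM in the 4 2-DG libraries. Replicates 1 and 2 of 2-DG were above all controls, and replicates 3 and 4 were within the control range. The log2 fold change of Aars2 was 0.65 with an SE of 0.28 (edgeR unadjusted p = 0.0435, adjusted p = 0.689).

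Gars (chr6:55038007-55079500) charges the tRNAs for glycine in both compartments. Gars was at 149, 95.8, 139, 194 and 233 CPM in control replicates 1 to 5 and at 207, 233, 187 and 379.8 CPM in 2-DG replicates 1 to 4. Replicate 4 of 2-DG was the highest library, and the other 3 overlapped the upper controls. Its log2 fold change was 0.63 (SE 0.31, edgeR unadjusted p = 0.0641, adjusted p = 0.709). Without 2-DG replicate 4 its log2 fold change was 0.37. Kars, the lysyl enzyme of both compartments and a member of the complex, had smaller differences. In control replicates 1 to 5 Kars had 100.2, 65.7, 87.1, 102 and 110.5 CPM, and in 2-DG replicates 1 to 4 it had 119, 130.1, 98.4 and 156 CPM. The 2-DG libraries other than replicate 3 were above all controls. This gave a log2 fold change of 0.44 for Kars (SE 0.22, edgeR unadjusted p = 0.0716, adjusted p = 0.713).

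Iars charges the tRNAs for isoleucine and belongs to the complex. The 5 control values of Iars were 138, 105, 171, 191 and 176 CPM and the 4 of 2-DG were 211, 215, 183 and 279 CPM. Replicate 3 of 2-DG lay among the controls, and the other 3 were above them. The log2 fold change of Iars was 0.51 with an SE of 0.23 (edgeR unadjusted p = 0.0527, adjusted p = 0.692). Yars, the tyrosyl enzyme, showed the same order of groups. Yars stood at 122, 78.1, 126, 164 and 157 CPM in the 5 controls, against 173, 167, 146 and 213 CPM in the 4 2-DG libraries. Its 2-DG replicate 3 was within the control range, the other 3 above it. Its log2 fold change was 0.43 (SE 0.25, edgeR unadjusted p = 0.108, adjusted p = 0.749). Cars, the cysteinyl enzyme, overlapped more widely. Cars was at 66.1, 116, 78.3, 95.8 and 128 CPM in control replicates 1 to 5 and at 125, 119.7, 88.9 and 174 CPM in 2-DG replicates 1 to 4. Replicate 4 of 2-DG alone was above all controls. This gave a log2 fold change of 0.39 for Cars (SE 0.26, edgeR unadjusted p = 0.166, adjusted p = 0.781). Without that library it was 0.20.

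Wars charges the tRNAs for tryptophan, and its transcript is also known to respond to interferon. In control replicates 1 to 5 Wars had 122, 68.0, 74.7, 90.1 and 109 CPM, and in 2-DG replicates 1 to 4 it had 107, 116, 101 and 124 CPM. The control range held 3 of the 4 2-DG libraries. The log2 fold change of Wars was 0.28 with an SE of 0.22 (edgeR unadjusted p = 0.229, adjusted p = 0.809). It was 0.18 without control replicate 2 and 0.39 without control replicate 1. Interferon-stimulated genes were lower in the mean of the same 2-DG libraries. Of 10 listed genes 0 were higher in 2-DG, with a median log2 fold change of −1.09. Their mean log2 CPM overlapped between groups, at 3.68 to 6.84 in controls and 4.25 to 5.59 in 2-DG. The lowest library was control replicate 2. That median was −0.77 without control replicate 5 and −1.63 without 2-DG replicate 4. The transcript Wars-201 held 64.0% of the gene's counts in controls and 77.8% in 2-DG, with the second coding transcript, Wars-205, at 32.7 and 18.2%. The unadjusted p of the quasi-likelihood test was 0.186 for Wars-201 and 0.382 for Wars-205.

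**Figure D3:**
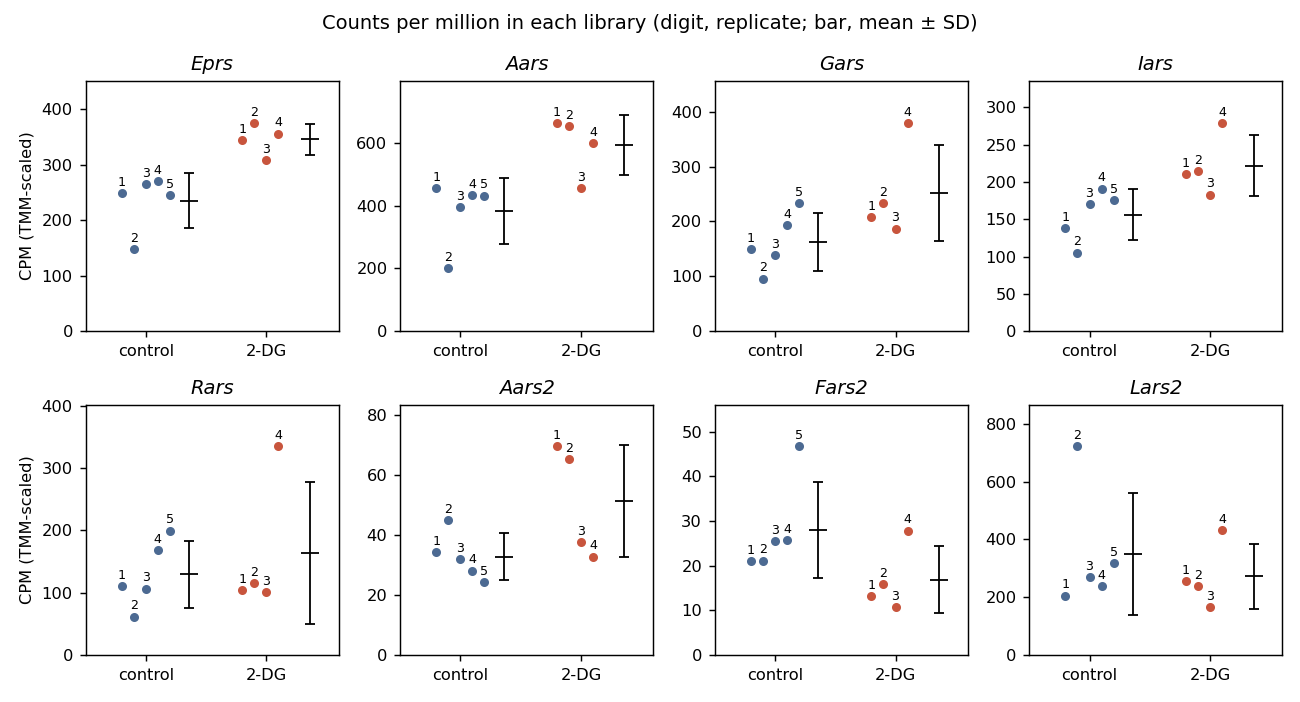
TMM-scaled CPM of 8 synthetase genes in each library, with the replicate number over each point and the mean ± SD of each group beside it (5 controls in blue, 4 2-DG in red). Eprs is separated between groups, and Aars by no more than 456.7 against 456.6 CPM. Control replicate 2 is lowest for both and highest for Lars2 at 722 CPM, and 2-DG replicate 4 is highest for Rars at 335 CPM.

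For Sars and Rars the higher mean rested on 2-DG replicate 4. Sars, the seryl enzyme, had 186, 147, 142, 269 and 316 CPM in controls and 218, 216, 199 and 542 CPM in 2-DG. Rars, an enzyme of the complex that charges the tRNAs for arginine, had 111, 61.7, 107, 168 and 199.8 CPM in controls and 104, 115, 100.5 and 335 CPM in 2-DG. The other 3 2-DG libraries lay within the control range for both genes. Their log2 fold changes were 0.47 and 0.34 with all libraries, and −0.01 and −0.28 without 2-DG replicate 4. These genes were picked after their values were seen. For Nars, Tars, Mars, Lars, Hars and Vars the log2 fold changes were 0.44, 0.42, 0.35, 0.29, 0.27 and 0.26, with SEs of 0.18 to 0.33 and adjusted p of 0.79 to 0.83. Without 2-DG replicate 4 the log2 fold change of Lars turned to −0.02, and those of Nars, Tars and Mars were 0.23, 0.20 and 0.18. Hars was at 0.16 without control replicate 2. Farsb, Farsa and Dars were at 0.15, 0.09 and 0.05, and the sign of the latter 2 turned when a library was left out, to −0.04 for Farsa without 2-DG replicate 2 and −0.07 for Dars without control replicate 2. Farsb was at 0.0044 without 2-DG replicate 4. Farsa and Farsb encode the subunits of the cytosolic phenylalanyl enzyme.

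Qars, the glutaminyl enzyme of the complex, was the only cytosolic gene with a lower 2-DG mean. The 5 control values of Qars were 55.8, 113, 64.9, 42.8 and 62.6 CPM and the 4 of 2-DG were 51.5, 67.8, 61.5 and 62.2 CPM. All 4 2-DG libraries lay within the control range, below the control mean that replicate 2 raised. Its log2 fold change was −0.16 (SE 0.27, edgeR unadjusted p = 0.572, adjusted p = 0.905). Without control replicate 2 its value was 0.10. No transcript of Qars dominated, the leading one being the nonsense-mediated decay transcript Qars-231 with 26.6% of the counts.

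The cytosolic genes were also read by role. The 12 on the ATF4 target list were all higher in 2-DG, with a median log2 fold change of 0.44 and a range of 0.28 (Wars) to 0.63 (Gars), and without 2-DG replicate 4 the median was 0.23 with 10 of 12 higher. Of the 8 others 7 were higher, with a median of 0.21. The 8 enzymes of the multi-tRNA synthetase complex had a median of 0.35 (7 higher), and the 12 outside it 0.41 (12 higher). The 10 class I enzymes, with a Rossmann-fold catalytic domain, had a median of 0.35, and the 10 class II enzymes, with an antiparallel β-sheet fold, 0.43. Eprs is counted in class I for its glutamyl part, although its prolyl part is of class II. All these medians were lower without 2-DG replicate 4. They were then 0.06 for the 8 genes off the ATF4 list (6 higher), 0.09 for the complex (5 of 8 higher), 0.21 for the genes outside it (11 of 12 higher), and 0.20 and 0.21 for classes I and II. These medians describe lists chosen with results known, and no difference between them was tested. The complex scaffold genes Aimp2, Aimp1 and Eef1e1 were at 0.52, 0.32 and −0.18, with adjusted p of 0.765, 0.771 and 0.850. Aimp2, Aimp1 and Eef1e1 were at 0.15, 0.14 and −0.28 without 2-DG replicate 4, and Eef1e1 was at −0.09 without 2-DG replicate 3.

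Among the mitochondrial genes the lowest value was that of Fars2 (chr13:36117412-36726280), which charges the tRNA for phenylalanine. Fars2 stood at 21, 21.1, 25.4, 25.7 and 46.7 CPM in the 5 controls, against 13.2, 15.8, 10.6 and 27.8 CPM in the 4 2-DG libraries. Replicates 1 to 3 of 2-DG were below all controls, and replicate 4 was above 4 of the 5 controls. This gave a log2 fold change of −0.73 for Fars2 (SE 0.35, edgeR unadjusted p = 0.0624, adjusted p = 0.708). It was −1.08 without 2-DG replicate 4 and −0.48 without control replicate 5. The estimate also depended on how transcripts were combined, since with the transcript counts added up for each gene it was −0.21, with an unadjusted p of 0.434. The ratio of that sum to the deposited gene value was 0.667 to 0.912 in controls and 0.902 to 1.33 in 2-DG, the widest span of the 37 genes. Its transcript Fars2-203 was at 2.42, 2.01, 1.87, 1.44 and 0.536 CPM in controls and at 0, 0, 0 and 0.448 CPM in 2-DG (edgeR unadjusted p = 0.0171). That transcript thus had counts in every control and in a single 2-DG library. The main transcript Fars2-205 held 36.0% of the gene's counts in controls and 51.7% in 2-DG. Its mean was 7.51 CPM in controls and 9.82 CPM in 2-DG, with a log2 fold change of 0.39 (SE 0.44). The coding transcript Fars2-201 was at 0.24 (SE 0.38), and all other tested Fars2 transcripts were lower in 2-DG. Groups overlapped for Fars2-205 and Fars2-201. Annotated exons of Fars2 share 501 bases with Nrn1 and 115 with Lyrm4, both on the opposite strand.

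Hars2, which charges the tRNA for histidine in the mitochondrion, was above every control in 3 of 4 2-DG libraries. Hars2 was at 43.3, 35.5, 43.3, 28.9 and 28.1 CPM in control replicates 1 to 5 and at 48.0, 53.1, 60.8 and 28.3 CPM in 2-DG replicates 1 to 4. Replicate 4 of 2-DG lay among the lowest controls. The log2 fold change of Hars2 was 0.41 with an SE of 0.26 (edgeR unadjusted p = 0.141, adjusted p = 0.77). It was 0.27 without 2-DG replicate 3 and 0.59 without 2-DG replicate 4. Its gene lies head to head with Hars, and their annotated exons share 195 bases on opposite strands. Cars2, Nars2, Wars2, Iars2 and Tars2 were at 0.45, 0.29, 0.25, 0.24 and 0.20, with adjusted p of 0.78 to 0.86. Mars2, Yars2, Pars2, Sars2, Rars2 and Vars2 lay between −0.11 and 0.07, and Ears2, which also makes the glutamyl-tRNAGln that GatCAB converts, was at −0.17. Single libraries moved several of these values. Without control replicate 2 Cars2 was at 0.71, Sars2 at 0.29, Vars2 at 0.19 and Ears2 at −0.39. Vars2 was at −0.31 without control replicate 4, Mars2 at 0.22 without control replicate 3 and Yars2 at 0.25 without 2-DG replicate 3. Nars2 was at 0.51 without control replicate 3, Tars2 at 0.07 without control replicate 4, Iars2 at 0.13 without control replicate 5 and Wars2 at 0.13 without 2-DG replicate 4.

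Lars2 (chr9:123366927-123462666), the leucyl enzyme, had the highest level per kilobase of any mitochondrial gene and a wide spread. In control replicates 1 to 5 Lars2 had 205, 722, 269, 239 and 317 CPM, and in 2-DG replicates 1 to 4 it had 255, 238, 166 and 431 CPM. Control replicate 2 was the highest library and 2-DG replicate 4 the next, and the other 7 lay between 166 and 317 CPM. Its log2 fold change was −0.36 (SE 0.42, edgeR unadjusted p = 0.405, adjusted p = 0.859). Without control replicate 2 the value was 0.08. The 2 high libraries also had the 2 largest shares of counts from the mitochondrial genome, 10.7 and 13.6%, and the part of this in the result was not tested. On average 85.4% of the Lars2 counts (70.2 to 97.5%) were assigned to the nonsense-mediated decay transcript Lars2-209 and 13.9% to the coding transcript Lars2-201. Those transcripts share nearly all of their sequence, with 35 of 3726 words of 31 bases particular to Lars2-209 among the Lars2 transcripts and 149 of 3864 to Lars2-201, so their division rests on few positions. Lars2-201 itself stood at 41.6, 16.0, 44.6, 35.3 and 32.4 CPM in controls and 23.0, 41.6, 46.1 and 25.8 CPM in 2-DG. Its groups overlapped throughout, and replicate 2, the highest control for the gene, was the lowest for this transcript. With Lars2 left out, the median of the 16 other mitochondrial genes was 0.07.

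Of the 212 synthetase transcripts tested, 4 were higher and 1 lower at an unadjusted p under 0.05 (2 higher and 3 lower with library size only), where 1.17% and 2.28% of all 62900 transcripts were, and at an adjusted p under 0.05 the test called 0% of all transcripts. The lower one was Fars2-203. The higher ones were the retained-intron transcripts Cars2-209 and Cars-207, the noncoding Cars2-202 and the decay transcript Tars2-216. Cars2-209 was at 4.72, 9.00, 2.80, 2.73 and 2.54 CPM in controls and 16.9, 14.0, 9.53 and 3.97 CPM in 2-DG. Replicates 1 to 3 of 2-DG were above all controls. It took 22.5% of the Cars2 counts in controls and 41.5% in 2-DG, while the coding Cars2-201 took 40.3 and 17.4%. Cars2-201 had a log2 fold change of −0.91 with an SE of 0.66.

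Averaged over the 20 cytosolic genes, the level of a library was 6.83 ± 0.24 in controls and 7.18 ± 0.29 in 2-DG (mean log2 CPM ± SD). The libraries of 2-DG replicates 1 and 3 (7.10 and 6.87) lay below the highest control, replicate 5 at 7.12, with 2-DG replicate 2 just above it at 7.17 and 2-DG replicate 4 the highest at 7.56. Control replicate 2 was the lowest at 6.50. For the 17 mitochondrial genes the level was 4.66 ± 0.12 and 4.74 ± 0.18, with overlapping groups. The cytosolic level minus the mitochondrial level, in log2 units, was 2.17 ± 0.35 in controls and 2.44 ± 0.28 in 2-DG. Per library it was 2.10, 1.75, 1.95, 2.51 and 2.54 in controls and 2.27, 2.26, 2.37 and 2.85 in 2-DG. Replicates 4 and 5 of the controls were thus higher than 3 of the 4 2-DG libraries. The difference of the group means was 0.27, and it was 0.17 without control replicate 2 and 0.13 without 2-DG replicate 4.

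**Figure D4:**
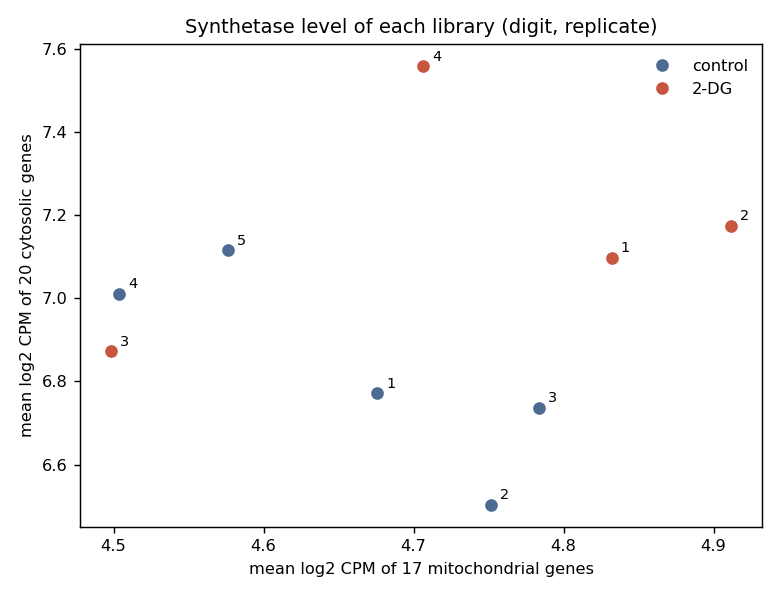
Mean log2 CPM of the 17 mitochondrial (x axis) and 20 cytosolic (y axis) synthetase genes in each library, with the replicate number beside each point (controls in blue, 2-DG in red). Control replicate 2 is lowest on the cytosolic axis at 6.50 and 2-DG replicate 4 highest at 7.56, and the groups overlap on both axes.

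Control replicate 2 was the lowest of all 9 libraries for 12 of 20 cytosolic and 3 of 17 mitochondrial genes, and the highest for 1 and 4. Replicate 4 of 2-DG was the highest for 14 cytosolic and 3 mitochondrial genes and the lowest for 0 and 1. The cytosolic median log2 fold change was 0.28 without the former and 0.20 without the latter, and the mitochondrial median 0.16 and 0.05. Without 2-DG replicate 3 they were 0.51 and 0.15. Rod markers summed to 41020 CPM in control replicate 2 and to 15430 CPM in 2-DG replicate 4, the 2 highest values. Endothelium and pericyte markers were highest in 2-DG replicate 4 and control replicate 5, at 2503 and 1999 CPM, which also had 2 of the 3 highest cytosolic levels, and ran from 326 to 1080 CPM elsewhere. Müller glia markers had a median of 3372 CPM in controls (1432 to 6230) and 1370 CPM in 2-DG (608 to 2774). Bipolar cell markers had a median of 942 CPM in controls (145 to 1890) and 2108 CPM in 2-DG (288 to 2929), and were lowest in control replicate 5 and 2-DG replicate 4. Skeletal muscle markers had a median of 30.8 CPM in controls (29.0 to 53.6 in 4 libraries and 4.51 in replicate 2) and 5.86 CPM in 2-DG (2.26 to 10.04). The part of cell composition in these differences was not tested.

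The other genes of the pathway were read from lists chosen for their function. The tRNA charging partners were 14 genes, for scaffolds, editing, tRNA-dependent amidation, selenocysteine and formylation and including the synthetase gene Tarsl2 (0.22). Their median log2 fold change was 0.08, with 10 higher and 0 at an unadjusted p under 0.05. When a library was left out, 7 to 11 were higher. The median was then 0.02 (without 2-DG replicate 2) to 0.17 (without control replicate 1). The smallest p in that list was 0.117 by edgeR's quasi-likelihood test, for the editing factor gene Aarsd1 at 0.36, followed by the methionyl-tRNA formyltransferase gene Mtfmt at 0.39 and Aimp2. All 6 cytosolic elongation factor genes were higher, with a median of 0.51, among them Eef1g at 0.57 and Eef1b2 at 0.66. These values rested on 2-DG replicate 4, with 754 CPM of Eef1g against 315 to 368 CPM in the other 2-DG libraries. It was the highest 2-DG library for each of these genes except Eef1a2, for which it was the lowest. Without it 4 of 6 were higher, with a median of 0.03, Eef1g at 0.19 and Eef1b2 at 0.01. The 4 mitochondrial elongation factor genes had a median of 0.11 (0.25 without 2-DG replicate 3, and 0.07 with 2 of 4 higher without 2-DG replicate 4), and Gfm1, for elongation factor G1, was at 0.59 (SE 0.19, edgeR unadjusted p = 0.00966, adjusted p = 0.546).

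In the integrated stress response, the 15 genes of amino acid synthesis and transport known as ATF4 targets were all higher, with a median of 0.61. Gpt2 (alanine aminotransferase) was at 1.23, Aldh18a1 (proline synthesis) at 0.84 and Slc7a11 (cystine uptake) at 1.73, with adjusted p of 0.38 to 0.656. Slc7a11 stood at 1500 CPM in 2-DG replicate 4 and at 171, 233 and 345 CPM in the other 2-DG libraries, and without that replicate it was at 0.56, with 10 of the 15 genes higher and a median of 0.26. Without control replicate 5 the median of the 15 was 0.93. Per library, the mean log2 CPM of these 15 genes was 5.23, 4.89, 5.22, 6.33 and 6.47 in controls and 6.12, 6.22, 5.84 and 7.16 in 2-DG. The 12 synthetases of the ATF4 target list were at 7.12, 6.79, 7.13, 7.51 and 7.64 in controls and 7.63, 7.66, 7.37 and 8.15 in 2-DG. In both lists control replicates 1 to 3 were the 3 lowest libraries and 2-DG replicate 4 the highest. Of 9 regulators of the ATF4 pathway 6 were higher, with a median of 0.15, but without 2-DG replicate 4 this was 1 of 9, with a median of −0.60. Atf4 mRNA was at 0.11 (SE 0.38), Ddit3 (CHOP), whose exons share 68 bases with Mars on the opposite strand, at 0.19, Ppp1r15a, for the stress-induced regulator of the eIF2α phosphatase, at −0.88 and Atf3 at −1.16. Without 2-DG replicate 4 Atf4 was at −0.21 and Ppp1r15a at −1.81, and without control replicate 5 Atf3 was at −0.71 and Ppp1r15a at −0.49. Ddit3 was at 0.04 without control replicate 2 and at 0.35 without 2-DG replicate 3. Of the kinases of eIF2α, Eif2ak1 was at 0.41 (edgeR unadjusted p = 0.0339, adjusted p = 0.658), with Eif2ak4, Eif2ak3 and Eif2ak2 at 0.16, 0.01 and −0.27. Eif2ak3 was at −0.10 without 2-DG replicate 1 and at 0.20 without 2-DG replicate 4. Eif2ak2 was at −0.52 without control replicate 2 and at −0.10 without 2-DG replicate 4. The 10 ER chaperone genes, targets of the unfolded protein response, were all higher, 9 of them at an unadjusted p under 0.05, with a median of 1.19 and with Pdia4 at 1.70, Hyou1 at 1.18 and Sdf2l1 at 2.54. Their mean log2 CPM did not overlap between groups, at 6.12 to 6.63 in controls and 7.38 to 8.06 in 2-DG, whereas the ranges of the cytosolic synthetases did, at 6.50 to 7.12 and 6.87 to 7.56.

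**Figure D5:**
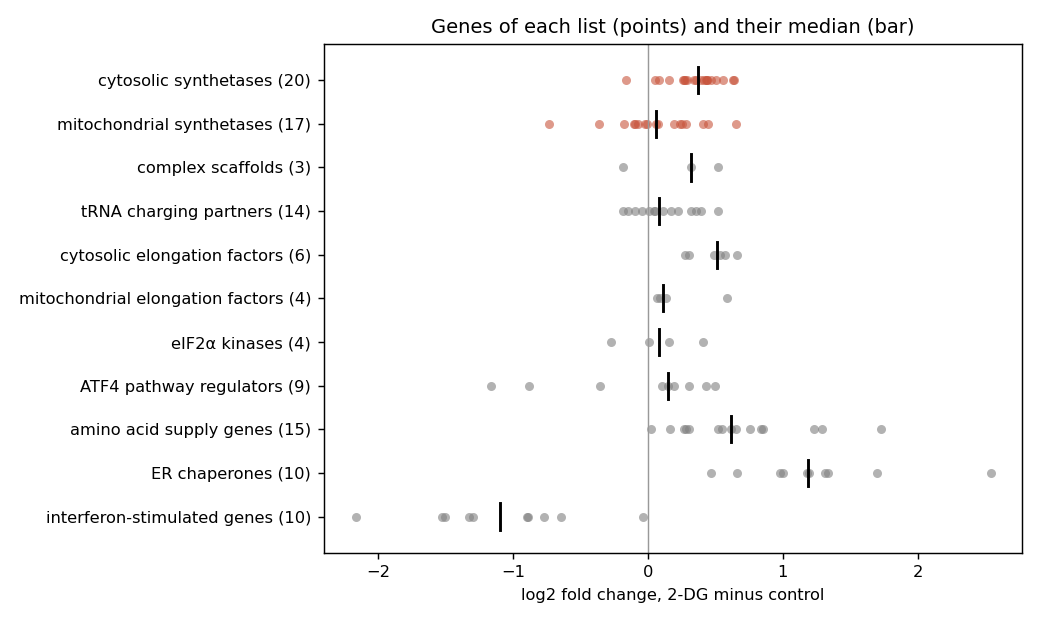
Log2 fold change of 2-DG minus control for each gene (points) of the synthetases (red) and of 9 related lists (grey), with the number of genes in brackets and a bar at the median. The cytosolic synthetases (median 0.37) lie beside the cytosolic elongation factors (0.51) and the amino acid supply genes (0.61), the mitochondrial synthetases (0.06) nearer 0, the ER chaperones highest (1.19) and the interferon-stimulated genes lowest (−1.09).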

How the data were processed

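RNA was measured by stranded total RNA-seq (paired reads of 101 bases) in 5 control and 4 2-DG retinal explant libraries, grouped by the treatment label. A culture text shared by all samples names 2-DG for controls too, and the treatment label was followed. The authors deposited estimated counts per gene and per transcript, for which the submitters' processing notes name kallisto and GRCm38. The gene values are not sums of the transcript values, and their ratio was 0.667 to 1.33 over the synthetase genes. How reads were counted by strand is not given in the sources used here, so overlapping genes may share counts. A deposited table of normalized CPM was not used, nor was a table of the authors' own comparison (fold changes and p-values).

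Estimated counts were rounded, genes were filtered with filterByExpr, scaled by TMM and tested with edgeR 4.0.16 (quasi-likelihood, R 4.3.3) over 21049 genes with Benjamini-Hochberg adjustment. Transcripts were treated likewise. Depth was 11317734 to 51802249 counts. Lengths, positions and symbols came from GENCODE M21. Library levels are means of log2 CPM (prior count 2). The procedure was tested on simulated data. Alternatives were other scalings, no filter, DESeq2 1.42.0, limma-voom 3.58.1 with quality weights, 2 surrogate variables (sva 3.50.0), summed transcript counts, a replicate block and each library left out, which for the related lists, the cytosolic subgroups and the pairs was chosen after seeing the data.

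The synthetase genes and the related lists were chosen with earlier results of these data known, so their counts and medians are descriptions. Values in every library were given for the 10 synthetase genes with the smallest p, for Gars, Kars and Wars, and for the highest and lowest fold change of each compartment, and other lists were named by their 3 smallest p. Tarsl2, the regulators of the ATF4 pathway and the eIF2α kinases were named beyond this rule, after their values were seen. Lars2, Sars and Rars, and the transcripts, were added after their values were seen. Protein sequences were not used here. The values of 1 mitochondrial gene, counted in the summaries, are not reported here.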

Additional observations from a re-analysis of the deposited data

Results flagged for a closer look

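In each group of 4 or 5 libraries of a synthetase gene, the gap between the extreme library and its nearest neighbour was set against the group's whole range, at a level that flags about 1 in 20 groups by chance. Of 74 such groups 11 were past it. Control replicate 2 was the isolated low library for Aars (201 CPM, next 396), Eprs (147.6 CPM, next 246) and Ears2 (5.37 CPM, next 15.8). The same library was the isolated high one for Lars2 (722.1 CPM, next 317), Cars2 (31.14 CPM, next 16.9) and Sars2 (31.5 CPM, next 15.6). Replicate 4 of 2-DG was the isolated high library for 4 cytosolic genes, at 203.5 CPM for Lars (next 107.5), 554.6 CPM for Nars (next 351.5), 335.1 CPM for Rars (next 115.0) and 542.3 CPM for Sars (next 217.5). Fars2 was isolated in control replicate 5, at 46.66 CPM (next 25.7).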

How the results depend on the processing

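At an adjusted p under 0.05 the 0 genes of the quasi-likelihood test became 284 with DESeq2, 1222 with limma-voom and 725 with 2 surrogate variables, and 0 to 16 when each library was left out (16 without control replicate 2, 2 without 2-DG replicate 4). The 2 cytosolic genes at an unadjusted p under 0.05 became 1 with upper-quartile scaling, 0 with library size only, 6 with limma-voom, 12 with 2 surrogate variables and 0 to 5 without single libraries. The 1 mitochondrial gene, Aars2, higher, was replaced by Fars2, lower, with upper-quartile scaling and with library size only. The mitochondrial count became 6 with limma-voom (5 higher and 1 lower), 3 with 2 surrogate variables (2 and 1), 0 with summed transcript counts and 0 to 3 without single libraries. The share of all genes at an unadjusted p under 0.05 also changed, from 2.42% higher and 4.83% lower. It was 10.6 and 15.4% with limma-voom and 9.59 and 10.2% with 2 surrogate variables. With upper-quartile scaling it was 1.53 and 6.07%, and with library size only 1.39 and 6.54%. Without single libraries it ran from 1.35 to 3.38% higher and from 3.17 to 9.49% lower. The cause was not tested. The labels do not say whether equal replicate numbers pair libraries, and r of their deviations (0.45, −0.15, 0.10 and 0.20) did not settle it. Not every library correlated best with its own number. The fit with a replicate block used replicates 1 to 4 of each group, so it also left out control replicate 5. It gave 4 cytosolic and 0 mitochondrial genes an unadjusted p under 0.05, beside 3.32% of all genes higher and 3.06% lower. Gars and Iars were among the 4 (edgeR unadjusted p = 0.0133 and 0.0459), while Eprs and Aars were not (0.0581 and 0.0541). Adjusted p fell under 0.05 with limma-voom for Aars2 (0.019), Aars (0.0426), Fars2 (0.0449) and Cars2 (0.03), and with 2 surrogate variables for Fars2 (0.0399) and Gars (0.0377).

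Qars turned to 0.14 with limma-voom, 0.0687 with 2 surrogate variables and 0.0211 with summed transcript counts, and lay between −0.33 and 0.10 without single libraries (0.10 without control replicate 2). Lars2 turned to 0.0346 with 2 surrogate variables and lay between −0.67 and 0.0799 (without control replicate 2). Sars lay between −0.0088 (without 2-DG replicate 4) and 0.65. Rars turned to −0.26 with limma-voom and lay between −0.28 (without 2-DG replicate 4) and 0.54. The cytosolic median stayed above 0 in the alternatives run, from 0.20 without 2-DG replicate 4 to 0.51 without 2-DG replicate 3. The mitochondrial median lay between −0.03 with upper-quartile scaling and 0.16 without control replicate 2.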
